A study of Mus musculus with 3 samples.

Results

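Distal CpGs of the mouse genome that were methylated at intermediate levels in REST knockout ES cells, and that hardly any read of a CTCF ChIP covered, were collected as 200 bp bins and described in the 3 libraries of the study. The autosomes of mm9 were divided into fixed bins, and bins with 3 to 10 listed CpGs whose centre lay more than 2 kb from every annotated gene start were kept. A member had at least 3 CpGs with a coverage of 5 to 96 in the REST knockout library, a level of 10 to 50% over those CpGs, and at most 2 pooled ChIP observations per CpG. An observation is 1 read of 1 CpG, and a level is the share of observations read as methylated. Of 1962628 distal bins with that many CpGs, 1055874 had enough usable CpGs in the REST knockout library, and 106041 of them, or 10.0%, were members. The members were therefore selected on the REST knockout level and on wild type coverage, and neither is a finding here. Wild type methylation had no part in the choice.

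The series holds 2 replicates of bisulfite sequencing of CTCF-bound DNA (CTCF ChIP-BisSeq) from wild type ES cells of a mixed 129-C57Bl/6 background, and 1 whole-genome bisulfite library (WG-BisSeq) from REST knockout ES cells of the 129 strain Black Agouti. ES cells are pluripotent cells of the early embryo, and all of these were kept in medium with LIF, on feeder cells or gelatine. For each ChIP-BisSeq library the precipitated DNA of several ChIPs was pooled. CTCF ChIP-BisSeq reads at bins without CTCF enrichment are taken here as background of the ChIP, and whether CTCF was bound to any of these molecules was not measured. Genotype, strain and assay change together between the libraries and cannot be told apart. Base differences between the strains, which can be read as unmethylated CpGs, were not tested. The REST knockout library holds 273375318 observations, replicate 1 13411280 and replicate 2 25262179. With 1 REST knockout library no difference between the genotypes has a replicate check.

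In mammalian genomes most CpGs outside CpG islands are methylated on both strands. CpG-poor stretches with reduced levels, called low methylated regions (LMRs), lie mostly away from promoters, and they are known as sites where transcription factors bind and as a mark of active enhancers. CTCF, a zinc finger protein that organises chromatin loops, occupies one large class of them, and pluripotency factors such as POU5F1, SOX2, KLF4 and ESRRB occupy others in ES cells. REST represses neuronal genes in non-neuronal cells by binding a long motif of its own.

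The sequences of 6 members are shown because the results return to them. They are the members nearest to the starts of Nanog and Sox2, which encode core pluripotency factors, 3 members picked for a small p between wild type and REST knockout counts, and the first bin of the longest run of adjacent members. Sequences are the plus strand of mm9, written 5′ to 3′, and CpGs are in capitals. The named gene is that with the nearest coding start.
Nanog, intergenic, chr6:122655200-122655399: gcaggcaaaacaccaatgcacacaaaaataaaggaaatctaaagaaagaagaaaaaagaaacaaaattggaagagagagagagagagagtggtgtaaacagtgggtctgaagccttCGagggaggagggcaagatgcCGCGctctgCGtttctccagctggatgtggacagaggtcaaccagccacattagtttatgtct
Sox2, intron of Sox2ot, chr3:34552200-34552399: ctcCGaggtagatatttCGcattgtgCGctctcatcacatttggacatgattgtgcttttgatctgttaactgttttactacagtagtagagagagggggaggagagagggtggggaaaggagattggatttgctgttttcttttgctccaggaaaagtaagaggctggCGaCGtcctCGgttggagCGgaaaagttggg
Dapl1, intergenic, chr2:59217000-59217199: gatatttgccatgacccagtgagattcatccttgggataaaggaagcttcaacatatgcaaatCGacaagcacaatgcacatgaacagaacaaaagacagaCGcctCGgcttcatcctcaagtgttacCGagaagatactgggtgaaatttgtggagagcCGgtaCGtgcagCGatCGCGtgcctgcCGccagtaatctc
Elk3, intron, chr10:92757800-92757999: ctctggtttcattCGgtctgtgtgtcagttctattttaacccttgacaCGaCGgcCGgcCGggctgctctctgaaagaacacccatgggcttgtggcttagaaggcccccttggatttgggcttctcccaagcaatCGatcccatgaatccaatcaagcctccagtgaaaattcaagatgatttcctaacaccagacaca
Trerf1, intron, chr17:47309200-47309399: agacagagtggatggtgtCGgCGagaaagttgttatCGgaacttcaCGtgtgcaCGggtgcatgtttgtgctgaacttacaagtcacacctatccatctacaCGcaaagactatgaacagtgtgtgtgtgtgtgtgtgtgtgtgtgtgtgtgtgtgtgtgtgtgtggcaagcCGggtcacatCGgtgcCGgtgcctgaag
Rasgrf1, intergenic, chr9:89774800-89774999: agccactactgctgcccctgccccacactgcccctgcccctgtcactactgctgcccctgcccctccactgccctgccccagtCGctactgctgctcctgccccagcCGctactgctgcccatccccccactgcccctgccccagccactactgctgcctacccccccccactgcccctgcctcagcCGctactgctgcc

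The sequences span the range of CpG numbers that the rule allows. The Nanog member has 4 CpGs and the Sox2 member 7. The Dapl1 member, with 10 CpGs, lies 105610 bp from the start of that gene, and it holds the POU motif ATTTGCAT on the minus strand. The Rasgrf1 bin is built of a short unit rich in C, with 3 CpGs.

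In the wild type libraries most observations in the members were methylated. The summed level was 69.2% in replicate 1 and 61.0% in replicate 2, a mean of 65.1% ± 5.79 (SD, n = 2), against 35.6% in the REST knockout library. The label "low methylated" therefore held in the library that chose the bins and not for the summed wild type background reads of the same bins. Single members varied. Of 7570 members with at least 10 wild type observations, 3640 (48.1%) were at most 50% methylated in the wild type. These levels rest on 6262535 REST knockout observations, 95418 of replicate 1 and 289671 of replicate 2. Distal bins above 50% in REST knockout cells with the same low ChIP coverage (732988 bins) had 75.5% in REST knockout cells and 88.6% and 86.0% in the replicates. The members lay below these methylated bins by 19.4 points in replicate 1 and by 25.0 points in replicate 2, a mean of 22.2 points ± 3.95 (SD, n = 2). On each of the 19 autosomes the members were below the methylated bins in both replicates, by 15.4 to 22.1 points in replicate 1 and by 22.0 to 27.1 points in replicate 2.

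The replicates were not equal in these bins. Replicate 1 was above replicate 2 on 19 of 19 autosomes, by 5.20 to 12.2 points, whereas the replicates differed by less in the methylated bins (88.6 and 86.0%). In each replicate the wild type level was above the REST knockout level on 19 of 19 autosomes, by 30.6 to 36.9 points in replicate 1 and by 23.1 to 28.1 points in replicate 2. The rule set the REST knockout side of this difference, so that it is a description. The methylated bins, whose REST knockout side was also chosen, lay 13.1 and 10.5 points higher in the wild type replicates.

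Wild type coverage, which the rule kept low, limits what can be said of a single bin. A member had a median of 41 REST knockout observations and of 3 wild type observations over a median of 4 CpGs. No wild type observation fell in 24.2% of the members, 76539 had none in replicate 1 and 33554 had none in replicate 2. Only 7570 members had at least 10 wild type observations.

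Bins with the same REST knockout levels but with more than 2 ChIP observations per CpG had lower summed wild type levels, carried by the most covered bins. These 46757 bins had 31.4% in REST knockout cells, 29.1% in replicate 1 and 25.8% in replicate 2. The members exceeded them by 40.1 points in replicate 1 and by 35.2 points in replicate 2, a mean of 37.6 points ± 3.48 (SD, n = 2), while the REST knockout levels of both kinds of bin were 4.14 points apart. These sums weight a bin by its coverage, and the 11062 bins with more than 8 observations per CpG hold 1156047 of the 1369787 observations of replicate 1. Per bin, with at least 10 wild type observations, the median was 46.7% over 40713 of these covered bins and 54.5% over 7570 members. Over CpGs with a pooled ChIP coverage of at most 5, the covered bins had 61.3 and 50.8% and the members 69.5 and 61.3%. The difference was graded with coverage within the members themselves. Members with up to 0.5 ChIP observations per CpG had 73.6 and 66.3% in the replicates, and those with 1.5 to 2 had 67.2 and 57.9%. Beyond the limit it was 62.1 and 51.7% in the 26721 bins with 2 to 4 observations per CpG, and it fell further to 54.2 and 45.6% at 4 to 8 and to 23.6 and 20.0% above 8. Members just inside the coverage limit (1.75 to 2) had 66.6 and 57.5%, and bins just outside it (2 to 2.25) had 62.7 and 53.4%.

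The wild type level of distal bins with low ChIP coverage climbed with the REST knockout level. Among members at 10 to 20% in REST knockout cells (11014 bins) it was 44.1% in replicate 1 and 34.0% in replicate 2. It was 60.1 and 50.1% for 17837 members at 20 to 30%, and 71.9 and 62.2% for 26433 members at 30 to 40%. In the 50757 members at 40 to 50%, which make up 47.9% of all, it reached 79.6 and 72.1%. Bins at the margins of the rule continued this order. At 8 to 10% in REST knockout cells, just below the lower limit, the replicates had 27.5 and 23.4%, against 36.6 and 29.2% at 10 to 12%. At 48 to 50% they had 81.8 and 75.7%, against 83.3 and 76.2% at 50 to 52%. Wild type levels were thus close on both sides of the upper limit. Across the lower limit they differed more, with both replicates lower outside than inside. All bins at 0 to 10% in REST knockout cells had 27.6 and 23.6%, near the levels at 8 to 10%.

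**Figure D1:**
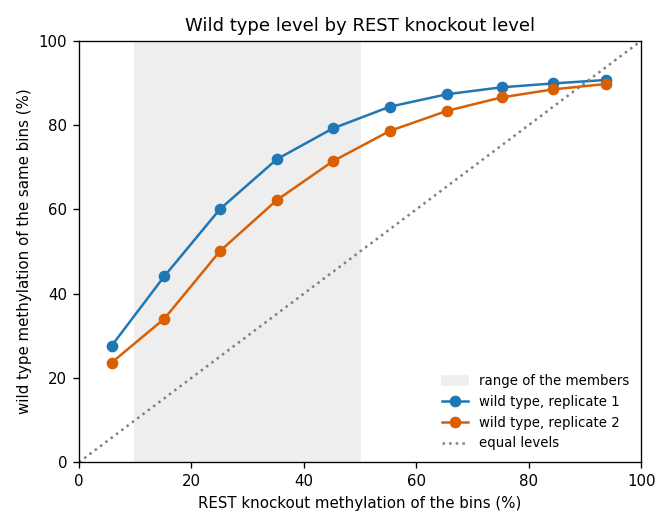
Methylation (%) of each wild type ChIP-BisSeq replicate (y axis) against REST knockout methylation (%, x axis) for distal bins with at most 2 ChIP observations per CpG, in steps of 10 points of the REST knockout level. Points are summed levels of all bins of a step, the grey band is the range of the members, and the dotted line marks equal levels. Both replicates lie above the dotted line within the band, replicate 1 above replicate 2.

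The depth of the REST knockout library moved with the wild type level too. Members with 15 to 29 REST knockout observations had wild type levels of 76.3 and 71.2%, and the 10375 members with at least 120 had 59.8 and 48.8%. In the methylated bins the replicates stayed at 88.1 to 88.8% and at 85.6 to 86.1% over the same steps of depth. Members took 12.1% of the eligible bins at 15 to 29 REST knockout observations and 8.64% at 120 or more. The part of this depth in the member levels was not tested.

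Single members with at least 10 wild type observations spread over the whole range of methylation. Their median pooled wild type level was 54.5%, with quartiles of 25.0 and 83.3%. Of 7570 such members, 2322 (30.7%) were at most 30% methylated, and 2308 (30.5%) were at least 80% methylated. Among 34296 methylated bins of the same wild type depth the median was 93.8%, and 2.37% of them were at most 30% methylated.

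**Figure D2:**
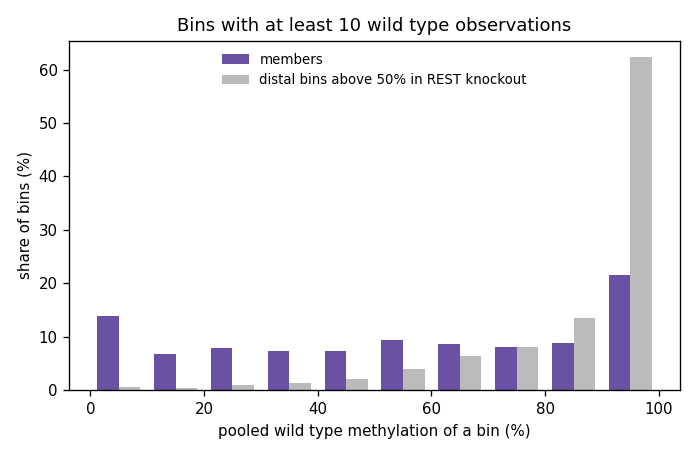
Share of bins (%, y axis) by pooled wild type methylation (%, x axis, steps of 10 points) for 7570 members and for 34296 distal bins above 50% in REST knockout cells, each with at least 10 wild type observations. Members fill both ends, 13.9% of them below 10% and 21.6% at 90% or more, while 62.3% of the methylated bins lie at 90% or more. The part of sampling few reads per bin in this spread was not tested.

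The members at the ends of that range differed in setting. Those at most 30% methylated in the wild type had on average 7.54 CpGs, a GC content of 55.3% and a median distance of 12.6 kb to the nearest gene start, and 37.7% lay in a run of adjacent members. Those at least 80% methylated had 6.86 CpGs, a GC content of 52.0% and a distance of 20.5 kb, and 20.0% lay in a run. Both kinds are richer in CpGs than the members at large, which had 4.60, as a bin with at most 2 observations per CpG needs at least 5 CpGs to hold 10. In REST knockout cells every usable CpG was at most 60% methylated in 78.9% of the first kind and in 47.5% of the second. Their REST knockout levels were 25.3% and 39.1%, and a lower bin level leaves fewer CpGs above 60%.

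For each bin with at least 10 wild type observations, methylated and unmethylated counts of the wild type and of the REST knockout library were then set against each other in a two-sided Fisher's exact test. Of 42755 distal bins tested, 6.66% were called higher in the wild type (adjusted p under 0.05 by Benjamini-Hochberg, and at least 20 points apart) and 2.03% were called lower. Among the 7570 members 1872 were called higher and 75 lower. The rule used the REST knockout level, so nothing is read from these shares. Of the 1947 called members, 815 were seen in 1 replicate only and 1132 in both. Observations of neighbouring CpGs on 1 read, and PCR copies of 1 molecule, are not independent, so that these p-values are too small and compare libraries, not genotypes.

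The 5 members called higher with the smallest p are given by their counts, as a description, since they were picked for the size of the gap. At the intergenic Dapl1 member (chr2:59217000-59217199) the REST knockout library had 61 of 313 observations methylated and replicate 2 had 20 of 20, with no observation in replicate 1. Its 9 usable CpGs were at 17.1 to 27.6% in REST knockout cells. Its 100% in the wild type has an exact 95% interval of 83.2 to 100%, for counting error only.

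In the intron of Elk3 (chr10:92757800-92757999), an ETS family repressor, 12 of 115 REST knockout observations were methylated and 12 of 12 in replicate 1. In the intron of Clpb (chr7:108840800-108840999), which encodes a mitochondrial chaperone, the counts were 28 of 175 in REST knockout cells, 6 of 6 in replicate 1 and 8 of 8 in replicate 2. An intron of B230120H23Rik (chr2:72210200-72210399) had 55 of 250 in REST knockout cells, 12 of 12 in replicate 1 and 4 of 4 in replicate 2. Of these 5 members, Clpb and B230120H23Rik were therefore the pair in which both replicates were fully methylated. An intergenic member 20862 bp from the start of Ppp2r2d (chr7:146016800-146016999), which encodes a regulatory subunit of protein phosphatase 2A, had 43 of 242 in REST knockout cells and 15 of 15 in replicate 2.

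Of the 75 members called lower in the wild type, the 5 with the smallest p had REST knockout levels of 42.0 to 50.0%. In the intron of Trerf1 (chr17:47309200-47309399), a zinc finger transcriptional regulator, 44 of 100 REST knockout observations were methylated, none of 15 in replicate 1 and none of 3 in replicate 2. An exon of Slc2a4 (chr11:69758800-69758999), the insulin-responsive glucose transporter, had 70 of 140 in REST knockout cells and none of 13 in replicate 2. An exon of Cd300e, an immune receptor of myeloid cells, had 45 of 94 in REST knockout cells and none of 3 and of 11 in the replicates. The remaining members of these 5, in introns of Sh3gl3 and Gpr98, had a central 32-mer that occurs 24696 and 136 times on the autosomes, so that their reads could have come from other copies.

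Between the ChIP-BisSeq replicates, whose methylation the rule did not use, few bins were told apart. Bins with at least 5 observations in each replicate were compared by the same test, and of 5620 such bins 0.623% were called higher in replicate 1 and 0.979% higher in replicate 2. Of 1202 members tested, 17 were called higher in replicate 1 and 4 higher in replicate 2, or 1.75% in all against 1.60% of all bins tested. The median gap of members called higher in replicate 1 was 100 points. At an unadjusted p under 0.05 there were 215 members. The depth of single bins limits this comparison.

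Within a member the CpGs were rarely at opposite states in REST knockout cells. The rule's upper limit on the bin level by itself leaves little room for highly methylated CpGs. No other bins were compared, so the shares below describe the selected bins only. In 67606 members (63.8%) every usable CpG was at most 60% methylated in REST knockout cells. A split pattern, with at least 1 CpG at 10% or less and at least 1 at 70% or more, was seen in 4108 members (3.87%), and 34327 (32.4%) were mixed. The split share depended on depth, and it was 1.35% with a REST knockout coverage of at least 10. The median range between the lowest and the highest CpG of a bin was 32.4 points. Even members had wild type levels of 64.5 and 55.7%, split members 72.8 and 66.0%, and mixed members 78.0 and 70.3%, in the order of replicate 1 and replicate 2. Even members were also lower in REST knockout cells, 31.4% against 36.6% and 43.6%.

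The same order held for single CpGs. Over the 440923 usable CpGs of the members, those listed at 0% in REST knockout cells (15660 CpGs) were 50.6 and 43.0% methylated in the wild type replicates. CpGs at 20 to 40% had 68.7 and 59.2%, and CpGs at 80 to 100% had 85.5 and 81.2%. CpGs without a methylated observation in REST knockout cells had 43.0% or more of their wild type observations methylated in each replicate. These CpGs were picked for that 0%, and a usable CpG could have few REST knockout observations. The parts of sampling few observations and of base differences between the strains in this difference were not tested.

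Most members had no adjacent member, and those in runs were less methylated in the wild type. Only 47198 positions next to members held a bin under the same limits on distance to genes, CpG number and ChIP coverage. Most members therefore had no neighbour that could be a member, and a lone member need not be isolated. Of the 106041 members, 85808 had no member on either side, with wild type levels of 72.2 and 65.4%. The 7480 pairs of adjacent members had 61.2 and 48.3%, and the 1296 runs of 3 had 54.8 and 43.9%. The REST knockout level was lower in pairs (33.2%) and runs of 3 (31.5%) than in lone members (36.7%).

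The longest run joined 9 members over 1800 bp (chr9:89774800-89776599), 28913 bp from the start of Rasgrf1, an imprinted gene for a Ras exchange factor. Its 40 CpGs had 302 of 1421 REST knockout observations methylated, or 21.3% (exact 95% interval 19.2 to 23.5%), and the single bins ranged from 13.2 to 31.4%. In the wild type 1 of 2 observations was methylated in replicate 1, and in replicate 2 it was 6 of 13, too few to place its level (exact 95% interval in replicate 2 19.2 to 74.9%). In 5 of its 9 bins the central 32-mer occurs more than once.

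A run of 7 members in an exon of Synpo, an actin-associated protein gene, had 31.0% in REST knockout cells, 0 of 7 in replicate 1 and 11 of 29 in replicate 2. A run of 6 in an exon of Med26 (chr8:75019400-75020599), a Mediator subunit, had 40.7% in REST knockout cells, 14 of 17 in replicate 1 and 15 of 42 in replicate 2. The replicates lay apart there, with exact 95% intervals of 56.6 to 96.2% and of 21.6 to 52.0%. Those intervals are too narrow, as CpGs on 1 read are not independent. An intergenic run of 6 (chr3:102016200-102017399), 8183 bp from the start of Vangl1, a planar polarity gene, had 33.3%, 4 of 6 and 14 of 25. A run of 6 within Mmp24 (chr2:155618200-155619399), a membrane metalloproteinase, had 26.0% in REST knockout cells, 9 of 25 in replicate 2 and no observation in replicate 1.

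In the wild type the sign of the difference between the members and their flanks depended on which flanking CpGs were counted. Over every CpG at 1 to 2 kb, the measure that was planned, the flank levels were 38.6 and 42.5% in the replicates, below the members by a difference of -24.5 points ± 8.52 (SD, n = 2). With neighbouring bins that met the same limits on distance to genes, CpG number and ChIP coverage, a choice made after the data were seen, the flanks were above the members by 11.0 points ± 2.56 (SD, n = 2). With a limit of 5 on the pooled ChIP coverage of the flanking CpGs, also chosen later, the replicates were on opposite sides, with 67.5% in the flanks against 69.2% in the members in replicate 1 and 64.9% against 61.0% in replicate 2.

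Under the limits that the members had to meet, the REST knockout level went from 35.6% in the members to 45.9% in the next bin and to 62.7% at 1 to 2 kb. In replicate 1 it was 69.2% in the members, 68.2% in the next bin and 78.4% at 1 to 2 kb, and in replicate 2 it was 61.0, 59.5 and 73.8%. In REST knockout cells the lowest point is the member itself, as the rule requires. In both wild type replicates the summed level of the next bins was slightly below that of all members. The next bins came from only 47198 positions, some of them members themselves, so these sums cover different loci. The same holds for the bins at 1 to 2 kb. Members in runs of 2 or more had 59.5 and 47.0% in the replicates. Whether a member differs from its own next bins in the wild type was not tested. Around methylated bins the flanks were below the centre, with differences of -2.21 points in replicate 1 and -2.33 points in replicate 2.

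**Figure D3:**
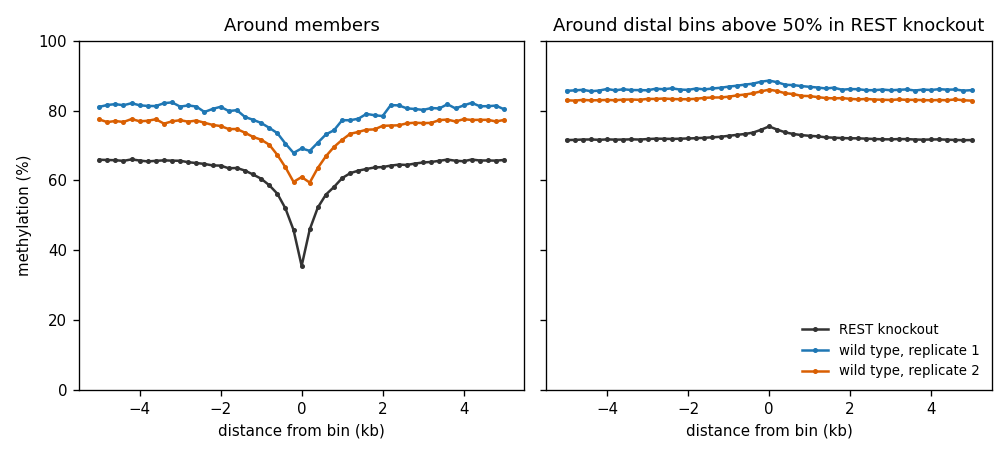
Methylation (%, y axis) in the 3 libraries against the distance from the bin (kb, x axis), for neighbouring bins under the same limits on distance to genes, CpG number and ChIP coverage. Left, around members, with 35.6% in REST knockout cells at the centre and levels of 65.8% (REST knockout), 81.5% (replicate 1) and 77.2% (replicate 2) at 4 to 5 kb, and right, around bins above 50% in REST knockout cells, where the lines rise slightly at the centre.

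The members' number of CpGs and place in the genome went with the wild type level. Members with 3 CpGs (34499 bins) had 76.2 and 69.0%, and members with 10 CpGs (1623 bins) had 49.1 and 41.3%. Members 2 to 5 kb from a gene start had 60.6 and 52.5%, and those 100 to 500 kb away had 77.8 and 72.2%. Methylated bins varied less, from 87.8 to 89.2% in replicate 1 and from 84.0 to 87.3% in replicate 2 over the distances of 2 to 500 kb. Members made up 12.8% of the eligible bins at 2 to 5 kb and 8.90% at 50 to 100 kb.

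Of the members, 44.9% were intergenic, 46.9% intronic and 8.20% exonic, and they made up 10.4%, 9.95% and 8.71% of the eligible bins of each kind. Exonic members had 66.8 and 57.2% in the wild type replicates and intronic members 70.5 and 62.1%. Among bins whose central 32-mer occurs at least 10 times on the autosomes, 13.8% of the eligible bins were members, against 9.85% of bins with a single copy. Members with a single copy (96420 bins) had wild type levels of 69.2 and 61.0%, equal to those of all members, and members with 10 or more copies had 71.3 and 61.4%.

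Short motifs of transcription factors, some of them pluripotency factors, were searched on both strands of each 200 bp bin. Their shares were set beside those of the methylated bins. The motif of KLF factors (GGGTGTGG), zinc finger activators of the naive state, was in 2.83% of the members (exact 95% interval 2.73 to 2.93%) and in 1.69% of methylated bins. The motif of the nuclear receptor ESRRB (CAAGGTCA) was in 1.62% against 1.26%, the POU motif in 0.989% against 0.756%, and the motif of ETS factors (CCGGAAG) in 2.33% against 1.84%. For SOX factors (CATTGTT) the shares were 2.65% and 2.37%. The intervals of members and methylated bins did not overlap for these 5 motifs, and the differences kept their sign and moved little against methylated bins with the same number of CpGs. GC content was 50.4% in the members and 50.0% in the methylated bins.

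Of the other motifs, some differed by the same measure and some did not. GCGCATGCG of NRF1, a factor of CpG-rich promoters, was in 0.185% of the members and in 0.144% of methylated bins. This ratio of 1.28 equals that of ESRRB over all methylated bins. Against methylated bins with the same number of CpGs the ratio was 1.18 for NRF1, 1.04 for the E-box and 1.29 for ESRRB. CACGTG, the E-box of basic helix-loop-helix factors, was in 5.78% and 5.51%. AGATAAG of GATA factors was less frequent in the members, 2.04% against 2.17%. The intervals did not overlap for these 3 motifs. They overlapped for TGANTCA of AP-1, a stress- and growth-responsive factor (5.64% and 5.62%), and for TGACGTCA of CREB (0.372% and 0.334%). The higher shares were therefore not particular to motifs of pluripotency factors.

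The part of the REST motif searched here (GGACAGCGC) was in 94 members, or 0.0886%, and in 0.0965% of methylated bins, with overlapping intervals. The CTCF consensus occurred in 168 members (0.158%, exact 95% interval 0.135 to 0.184%) and in 0.0886% of methylated bins, although the rule kept CTCF ChIP coverage low in both. These 168 members had wild type levels of 81.3 and 70.5%, from 91 and 511 observations, above the 69.2 and 61.0% of members without the match. Members with a KLF match had 64.6 and 55.2%, and members with an ETS match had 62.3 and 54.0%, each below the members without that match in both replicates (69.3 and 61.1% for KLF, 69.3 and 61.2% for ETS). Members with the POU motif had 65.0 and 57.1%, against 69.2 and 61.0% without it. The SOX motif went the other way, with 73.9 and 61.5% against 69.0 and 61.0%, and for ESRRB the replicates were on opposite sides, with 70.2 and 57.5% against 69.2 and 61.0%. REST knockout levels with and without the match were 34.2 and 35.6% for KLF, 33.8 and 35.6% for ETS, and 34.6 and 35.6% for POU. They were 38.0 and 35.6% for the CTCF consensus, and 35.5 and 35.6% for both SOX and ESRRB. The part of the REST knockout level in the wild type differences was not tested. A match is a run of letters and not a measured site of binding.

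**Figure D4:**
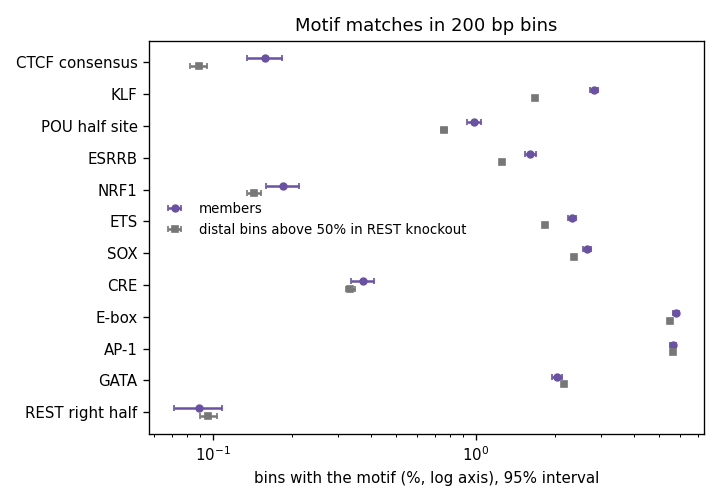
Share of 200 bp bins with a match to each motif on either strand (%, log x axis) for 106041 members and 732988 distal bins above 50% in REST knockout cells, with exact 95% intervals that cover counting error only. KLF matches were in 2.83 and 1.69% of the bins, and AP-1 matches in 5.64 and 5.62%.

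Members were dense around pluripotency genes. Within 50 kb of the starts of 23 pluripotency genes found in the annotation (of 24 listed), 420 of 1993 eligible bins were members, or 21.1% (exact 95% interval 19.3 to 22.9%), against 10.0% of all eligible bins. The list of 12 neuronal REST targets was near the overall share, with 59 of 573 bins or 10.3% (7.93 to 13.1%). The 19 lineage regulators found (of 20 listed) had 205 of 1569 or 13.1% (11.4 to 14.8%), and 13 housekeeping genes had 178 of 1115 or 16.0% (13.9 to 18.3%). Neighbouring bins are not independent, so that the intervals are too narrow. The pluripotency, housekeeping and lineage lists were above the overall share, and the REST knockout level that chose the members is part of these counts.

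Wild type methylation, which did not choose the members, differed between these lists. Members near lineage regulators, genes that specify tissues and are silent or poised in ES cells, were lowest, with 44.2% in replicate 1 and 40.1% in replicate 2, from 326 and 820 observations. Members near pluripotency genes had 65.6 and 52.2%, and members near housekeeping genes 68.5 and 49.7%. Members near neuronal REST targets had 67.2 and 69.5%, from 64 and 174 observations, the one list in which replicate 2 was not the lower. With 100 kb in place of 50 kb the lineage regulators had 50.6 and 46.5%. Single genes varied widely in the pooled wild type level within 50 kb. Lineage regulators ranged from 17.9% (Nkx2-2, 39 observations) to 100% (Sox17, 7 observations). Pluripotency genes ranged from 32.9% (Nr5a2, 76 observations) to 100% (Klf4, 6 observations). REST knockout levels of these members within 50 kb differed too. They were 30.9% for lineage regulators, 33.5% for pluripotency genes, 34.0% for housekeeping genes and 39.9% for neuronal REST targets. The wild type level climbed with the REST knockout level among all members, and its part in the differences between lists was not tested. The parts of CpG number and of distance to gene starts were not tested either.

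**Figure D5:**
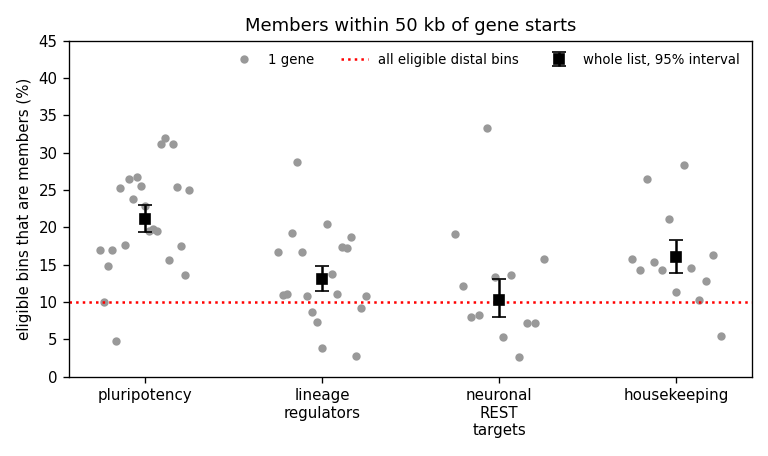
Eligible distal bins within 50 kb of gene starts that are members (%, y axis) for 4 gene lists (x axis). Grey points are single genes, squares are whole lists with exact 95% intervals for counting error only, and the dotted line is the 10.0% of all eligible bins. The pluripotency list stands at 21.1% and the neuronal REST targets at 10.3%.

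Among the pluripotency genes the share was highest around Sox2, where 32 of 100 eligible bins were members. Socs3, an inhibitor of LIF signalling, had 44 of 141 (31.2%) and Tbx3, a T-box factor of the naive state, 24 of 77 (31.2%). Nanog had 24 of 90 (26.7%) and Lin28a, an RNA-binding protein, 23 of 87 (26.4%). Pou5f1 had 17 of 87 (19.5%). At the other end, Esrrb had 14 of 140 (10.0%) and Klf4 2 of 42 (4.76%). In the lineage list Gata4, an endoderm and heart regulator, had 25 of 87 (28.7%), Pax6, an eye and neural regulator, 14 of 81 (17.3%) and Myod1, the muscle regulator, 4 of 106 (3.77%).

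At the members nearest to pluripotency genes the few wild type observations ranged from all unmethylated to all methylated. The member 2207 bp from the start of Nanog (chr6:122655200-122655399) had 21 of 63 REST knockout observations methylated and 6 of 6 in replicate 2. The member 3373 bp from the start of Sox2 (chr3:34552200-34552399) had 4 of 34 in REST knockout cells, 1 of 3 in replicate 1 and 0 of 11 in replicate 2. The exact 95% intervals of the pooled wild type level were 54.1 to 100% for the Nanog member and 0.181 to 33.9% for the Sox2 member. These intervals did not overlap, but they treat CpGs on 1 read as independent and are too narrow to separate the Nanog from the Sox2 member. The REST knockout level was also higher at the Nanog member, 33.3% against 11.8%.

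Klf5, a KLF factor, had its nearest member in an exon (chr14:99701200-99701399), with 71 of 354 REST knockout observations methylated, 2 of 2 in replicate 1 and 4 of 8 in replicate 2. The nearest member of Prdm14, a regulator of naive pluripotency and germ cells, had 17 of 39, and 7 of 10 in replicate 2. Neither the Klf5 nor the Prdm14 member was called. The Socs3 member had 6 of 34 and 0 of 9 in replicate 2, and the Klf4 member had 44 of 119 and 6 of 6 in replicate 1.

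Of 16 further nearest members, 3 had no wild type observation (Esrrb, Nodal and Utf1) and the rest had between 1 and 8. The wild type observations were all methylated at the members of Lin28a (5), Nr5a2 (8), Sall4 (4), Stat3 (3), Tbx3 (1) and Zfp42 (4). They were all unmethylated at those of Dppa3 (5), Fgf4 (4) and Klf2 (5), and mixed at Lefty1 (3 of 6 methylated), Mycn (2 of 4), Tet1 (1 of 5) and Tet2 (2 of 4). None of these 16 reached the 10 observations that the test required.

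No member overlapped any of the loci that the primers of the study amplify and that could be placed on the autosomes. The bin at the locus named A6300Rik had 18.9% in REST knockout cells, within the range of the members, but 452 wild type observations put it above the coverage limit. At the Zmynd8 locus the REST knockout level of 7.69% was below the lower limit, and the ChIP coverage was above its limit. The eligible bins at the Camta, Ciita, Crhr2, Muc3, St6ga and Zfp423 loci had 59.3 to 80.6% in REST knockout cells, above the range of the members.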

How the data were processed

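The authors deposited, for each library, whole-number counts per CpG: the observations covering it and those read as methylated. Per the labels the genome was mm9, and the submitters' processing notes name Bowtie 0.10.0.1. Whether PCR duplicates were removed is not given in the sources used here. A CpG is listed only where it was observed. Counts were summed per 200 bp bin, with replicates pooled by addition for the bin tests as in the study. REST knockout coverage was limited to 5 to 96. Gene starts are from the GENCODE annotation of mm9. The bin test was tested on simulated data: of 200 bins among 42755 changed by 40 points it recovered 3.5%, and of 200 changed by 60 points 58%. Unchanged bins were called 0 and 3 times. The simulated observations were independent, and the changed bins were always lower in REST knockout cells. More bins were called in the data, which moves the adjusted limit, so these shares do not give the recovery there. Intervals are exact Clopper-Pearson intervals and cover counting error only. No source states that the replicates were separate cultures. Named members were the 5 longest runs, the member nearest to each pluripotency gene within 50 kb, the 5 called members of smallest p in each direction, and any member at a primer locus. The values and sequence of 1 named member are not reported here. Members and lists were chosen with earlier results of these data known. Python 3.11.15, NumPy 2.4.6, pandas 2.3.3, SciPy 1.17.1 and matplotlib 3.10.9 were used. Alternatives changed coverage limits, level limits, bin offset, gene starts and replicates.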

Additional observations from a re-analysis of the deposited data

How the results depend on the processing

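Of 69 alternative values, 52 stayed within the limits set for the result. For levels and differences given as a mean of the replicates, that limit was their SD. A single replicate always lies within this SD of the mean, so its value there does not test stability. Over single replicates the wild type level of members was 61.0 to 69.2% and the gap to methylated bins 19.4 to 25.0 points. The flank difference over all CpGs was -30.5 to -18.5 points. Without replicate 2, 251 of 554 members tested were called against REST knockout, or 45.3%, against 18.3% of all bins tested. Without replicate 1 it was 876 of 3845, or 22.8%, against 7.40% of all bins tested. The flank difference turned positive as a mean over bins (5.34 points) and, chosen after seeing the data, with neighbouring bins under the same limits (11.0 ± 2.56, SD, n = 2). With flank CpGs of a ChIP coverage of at most 5, also chosen later, it was 1.12 ± 3.92, negative in replicate 1 and positive in replicate 2. The share of eligible bins that were members was 9.02% with a REST knockout coverage of at least 10, 6.90% with at most 1 ChIP observation per CpG, 6.76% with levels of 15 to 45% and 9.91% with all transcript starts. The share with a split pattern was 1.35% at a coverage of 10 and 4.25% with levels of 15 to 45%. With at least 5 wild type observations 3344 of 35604 members were called (9.39%, against 2.57% of all bins tested). With at least 15 it was 290 of 1122 (25.8% against 16.9%). Where both replicates had to move the same way, an alternative chosen after seeing the data, it was 1065 of 7570 (14.1% against 4.23%). The rule used the REST knockout level, so nothing is read from these shares either. Between replicates 0 of 6360 members were called by Fisher's exact test with at least 3 observations each (808 at an unadjusted p under 0.05), and 2 of 80 with at least 8. The pluripotency share was 17.1% within 100 kb. The cause was not tested. No paired analysis was possible because there is 1 REST knockout library. Low wild type depth limits every statement on a single bin.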
